A study of Homo sapiens with 12 samples.

Results

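CJ28 and metyrapone (MET) were compared at the same dose, 30 µM, and the same time, 24 h, in NCI-H295R cells, over 11293 protein-coding genes that reached 1 TPM in 4 or more of the 8 samples of these groups. These were 11293 of 19957 protein-coding genes and of 60662 genes of all classes in the table. TPM, a unit in which every library has the same total, corrects for transcript length and counts how large a part of a library each gene takes. NCI-H295R is a human adrenocortical carcinoma line, 1 line in all samples, that makes cortisol in culture. CJ28 is a benzimidazolylurea derivative described as an inhibitor of cortisol production, and MET is a drug that blocks 11β-hydroxylase, the enzyme of the last step to cortisol. Confluent cells in serum-free medium received vehicle (VEH, 0.1% DMSO), CJ28 or MET, and 4 samples of each group were sequenced as total RNA depleted of ribosomal RNA. No genetic change is named for the cells, and the 3 groups differ by compound. The labels do not say whether the 4 samples of a group were separate cultures, so p-values measure only the spread between these samples, which may be technical.

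Cortisol is made from cholesterol in a short chain of reactions. STAR brings cholesterol into the mitochondrion, CYP11A1 cuts its side chain, and HSD3B2, CYP17A1 and CYP21A2 lead to the substrate of 11β-hydroxylase. The cholesterol comes from lipoproteins and from synthesis in the cell, which the SREBP transcription factors drive when sterols are low. An enzyme inhibitor can lower cortisol without a change in these mRNAs, whereas effects on transcription or stress pathways can show in RNA.

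The table gave a TPM above 0 for 29463 to 31016 genes per sample, and TPM keeps no read depth. Over the members, Pearson's r across genes on log2(TPM + 0.1) was 0.990 to 0.993 between CJ28 samples, 0.992 to 0.994 between MET samples and 0.942 to 0.946 between CJ28 and MET samples, where genes are not independent replicates. Of 10 adrenocortical markers, 6 had a group mean of 1 TPM or more in CJ28 and 7 in MET, and HSD3B2, MC2R and MRAP were under it in both. Their summed level was 276 to 330 TPM in CJ28 and 428 to 446 TPM in MET. DLK1 was the largest part of the sum, with means of 184 TPM in CJ28 and 158 TPM in MET, whereas the means of all other markers were lower in CJ28. This list includes STAR, CYP11A1 and CYP17A1, which are described below. Endothelial, leukocyte and fibroblast markers, 5 of each, summed to at most 1.15 TPM in any CJ28 or MET sample, with none at 1 TPM or more. The fibroblast markers summed to 0.1 to 0.63 TPM in CJ28 and 0.65 to 0.94 TPM in MET, and of 5 adrenomedullary markers only CHGB had a group mean of 1 TPM or more. TH, the first enzyme of catecholamine synthesis, and the T cell marker CD3E were listed at 0 in every sample. The part of these markers in the results below was not tested. In bulk RNA, fewer cells of a type and less RNA per cell cannot be told apart.

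Of the members, 7403 (65.6%) differed between CJ28 and MET at an adjusted p under 0.05 (limma on log2(TPM + 0.1), Benjamini-Hochberg over all genes tested), against 55.5% of all 16815 genes tested. Among them 2910 members (25.8%) were higher in CJ28, against 20.9% of all genes tested, and 4493 (39.8%) were lower, against 34.6%. Most differences were small, since 90% of members lay between -0.95 and 0.74 on the log2 scale and 743 differed by more than 2-fold, 260 higher and 483 lower in CJ28. That split turned on other scales, with 378 higher and 348 lower after median-of-ratios scaling and 489 higher and 303 lower when TPM was recomputed over nuclear protein-coding genes. A stricter limit, an absolute log2 difference over 1.5 with an unadjusted p under 0.01, was passed by 211 members, 1.87% against 2.19% of all genes tested. In CJ28 84 of these were higher (0.744% of members, background 0.761%) and 127 lower (1.12%, background 1.43%). Some, such as CYP1A1, reached 1 TPM in 1 group only, so their direction follows from the rule of membership. They were not counted apart here. With a pseudocount of 1 in place of 0.1, only 108 members passed this limit. The 4 CJ28 and the 4 MET values did not overlap in 6769 members (59.9%), against 50.2% of all genes tested. The plot of difference against level shows both sets of called genes at every level of expression.

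**Figure D1:**
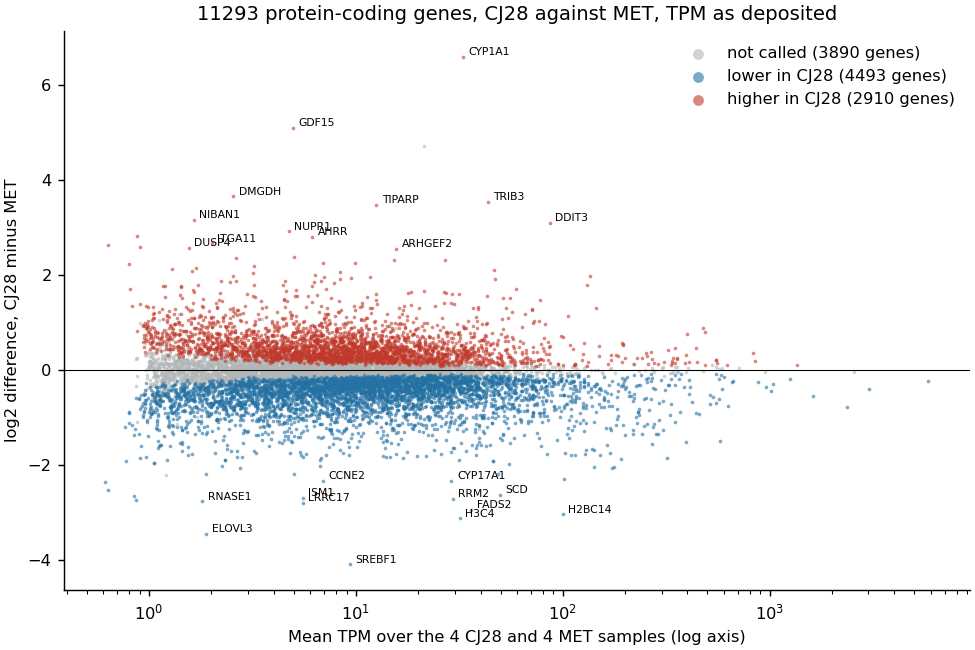
Each point is 1 of 11293 protein-coding genes, with its mean TPM over the 4 CJ28 and 4 MET samples on a log axis and its log2 difference, CJ28 minus MET, on the vertical axis. Colours mark the 2910 genes called higher in CJ28, the 4493 called lower and the 3890 not called, and the labelled genes reach from 6.60 (CYP1A1) down to -4.10 (SREBF1).

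The 3890 members not called are not thereby alike in the 2 treatments. For 2572 members (22.8%) the 95% interval of the difference lay wholly within 0.3 log2 of no difference, against 16.4% of all genes tested. For 3435 (30.4%) it lay wholly beyond 0.3, against 26.7% of all genes tested. Of the highly expressed genes inside the margin, EEF1A1 was measured at 1418, 1402, 1502 and 1292 TPM in CJ28, at 1333, 1350.0, 1259 and 1244 TPM in MET and between 1279 and 1312 TPM in VEH. This translation elongation factor was called, with a difference of only 0.11 ± 0.043 (limma adjusted p = 0.0412), and the call was lost without CJ28-1, CJ28-2, CJ28-3, MET-3 or MET-4 (0.080 to 0.11). The call was also lost in a fit of the 2 groups only and in a fit of all genes with TPM above 0. MT-CO1, a mitochondrially encoded subunit of cytochrome oxidase, differed by -0.052 ± 0.054 with an interval of -0.17 to 0.066. The groups overlapped in both genes. AC022506.1, named after its values were seen, lies far from zero in the plot and was not called, at 0, 138, 13.99 and 13.8 TPM in CJ28 and at 5.47, 0, 0 and 0 TPM in MET (limma adjusted p = 0.103), and was called without CJ28-1 (6.78) or MET-1 (6.17). Calls were more frequent at high levels, where the spread was smaller. Under 2 TPM 54.4% of 1304 members were called with a median standard error of 0.140, and over 50 TPM 84.3% of 789 were called with a median standard error of 0.0389. Of those over 50 TPM, 161 were higher and 504 lower in CJ28.

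TPM are shares, and the members held less of the total in CJ28. Nuclear protein-coding genes took 21.3% ± 0.0307 (SD, n = 4) of TPM in CJ28 and 24.3% ± 0.223 in MET, a difference of -3.02 percentage points with p = 0.0286 in a two-sided exact permutation test, which 4 samples a group cannot go below. In VEH the share was 24.6% ± 0.229. The median difference of the members was -0.08 as deposited, 0.03 after median-of-ratios scaling and 0.10 when TPM was recomputed over nuclear protein-coding genes. The split between directions followed it: lower genes made up 60.7% of the calls as deposited, 45.9% (3961 higher, 3354 lower) after median-of-ratios scaling and 37.8% (4770 higher, 2894 lower) on the nuclear protein-coding scale. All 2910 genes higher as deposited were also called higher after median-of-ratios scaling, and 3354 of the 4493 lower genes were also called lower. No gene was called in opposite directions on these 2 scales. Directions of single genes with small differences therefore depend on the scale, and the differences given from here on are those of TPM as deposited.

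**Figure D2:**
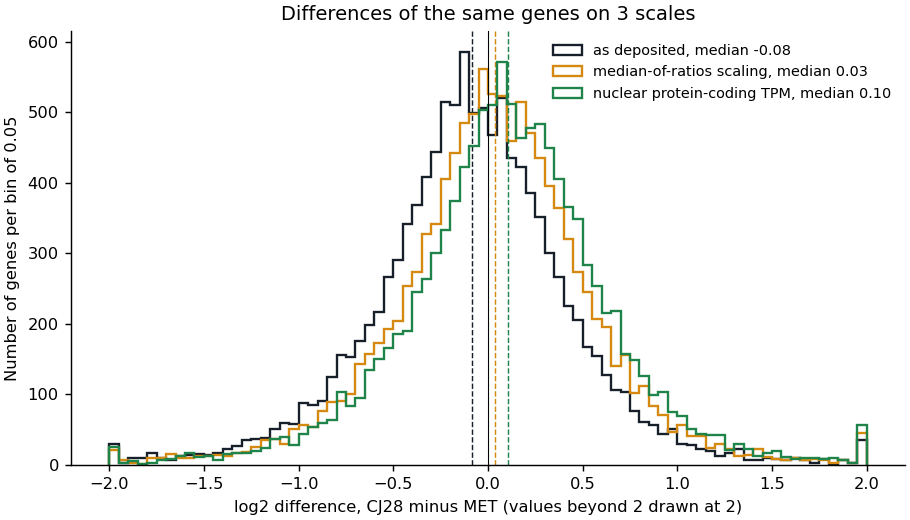
Histograms of the log2 difference, CJ28 minus MET, of the members with TPM as deposited, after median-of-ratios scaling and recomputed over nuclear protein-coding genes, in bins of 0.05, with dashed lines at the medians. The medians are -0.08, 0.03 and 0.10, and the 3 histograms have a similar shape at different offsets.

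Beside VEH, the 2 compounds stood as follows. CJ28 differed from VEH in 7465 members (66.1%), against 57.0% of all genes tested. MET differed from VEH in 0 members (limma, adjusted p under 0.05). An unadjusted limma p under 0.05 was found in 559 members (4.95%), against 5.20% of all genes tested. After adjustment 1 gene of all tested (0.00595%) was called. That gene, H4C12, named here after its values were seen, was listed at 0 in every MET and CJ28 sample and at 0.85 to 3.74 TPM in VEH, and RSEM can split reads of near-identical histone genes. The interval of MET minus VEH lay within 0.3 log2 of no difference for 8025 members (71.1%), against 50.8% of all genes tested. Both comparisons use the same 4 VEH samples. CYP11B1, which encodes 11β-hydroxylase, the target of MET, was at 0.05 TPM or less in all 12 samples and is no member.

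**Figure D3:**
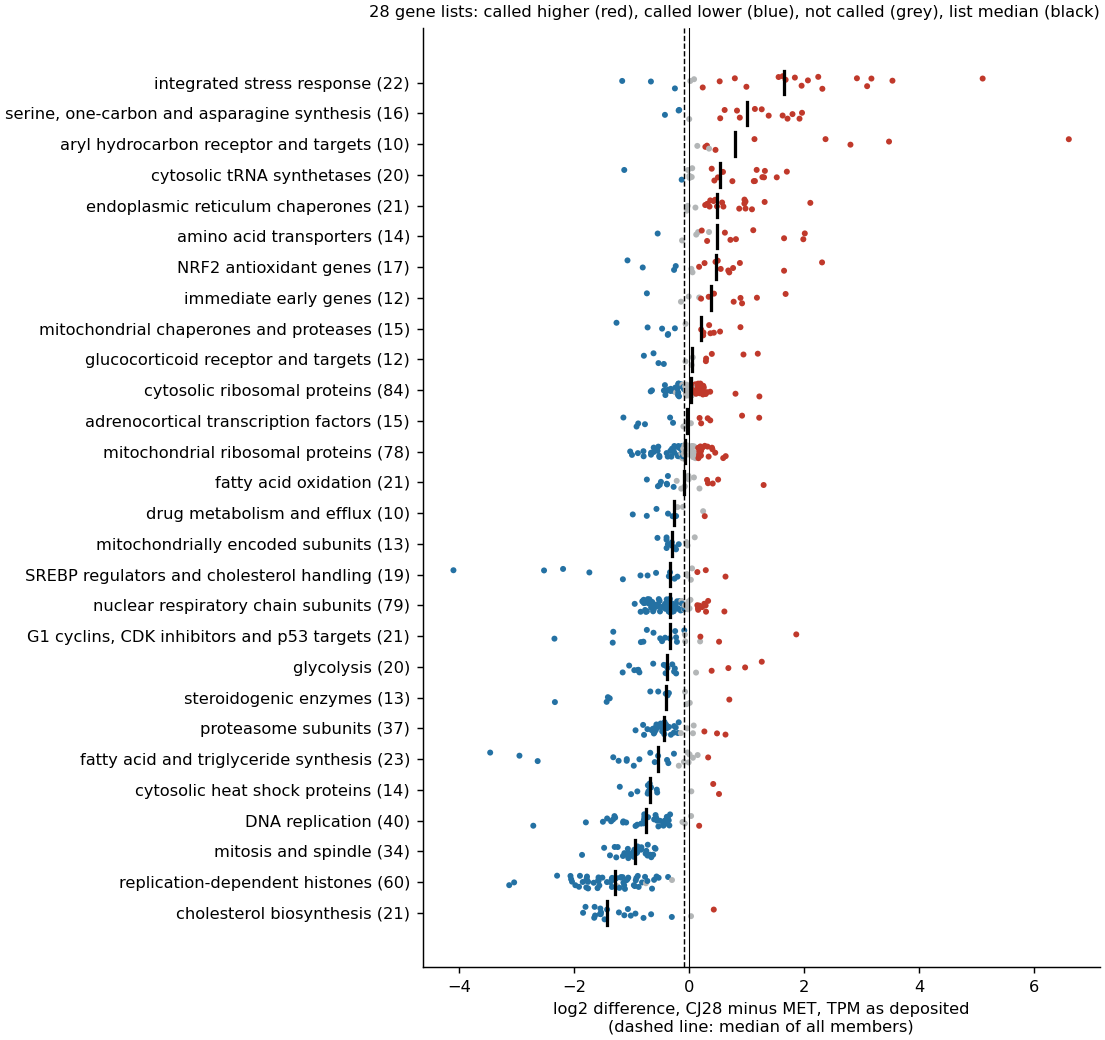
Each point is a member of 1 of 28 gene lists, with the number of members in parentheses, placed by its log2 difference, CJ28 minus MET. Red points were called higher in CJ28, blue points lower and grey points not called, the black bars are list medians from 1.65 (integrated stress response) to -1.43 (cholesterol biosynthesis), and the dashed line is the median of all members, -0.08.

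Most genes of the route from cholesterol to cortisol were lower in CJ28 than in MET. Of 13 members among the steroidogenic enzymes and their partners, 9 were lower, 1 was higher and 3 were not called, with a median of -0.41 (-0.29 after median-of-ratios scaling, with the same counts, and -0.22 on the nuclear protein-coding scale). Their summed level was 236 ± 4.99 TPM in CJ28 and 398 ± 4.48 TPM in MET (SD, n = 4). At the entry of the route, STAR had TPM of 21.2, 19.9, 21.3 and 22.6 in CJ28 and of 57.4, 59.6, 55.5 and 57.9 in MET, with 53.2 to 59.7 in VEH. The protein it encodes carries cholesterol to the inner mitochondrial membrane. CYP11A1 stood at 36.3, 35, 36.2 and 36.5 TPM in the 4 CJ28 samples, at 95.3, 95.2, 91.1 and 94 TPM in the 4 MET samples and at 90.6 to 94.9 TPM in VEH. It encodes the side-chain cleavage enzyme, the first step of steroid synthesis. The difference was -1.43 ± 0.045 for STAR (limma adjusted p = 7.06e-11) and -1.38 ± 0.028 for CYP11A1 (limma adjusted p = 2.09e-12), and in both genes every CJ28 sample lay below every MET and VEH sample.

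The largest difference in the route was in CYP17A1, the 17α-hydroxylase that commits precursors to cortisol and androgens. CYP17A1 was measured at 9.13, 9.58, 9.58 and 9.78 TPM in CJ28, at 48.6, 50.9, 47.4 and 46.7 TPM in MET and between 47.3 and 49.7 TPM in VEH. The difference was -2.33 ± 0.036 (limma adjusted p = 1.92e-13), and the MET values lay around those of VEH. CYP21A2, the 21-hydroxylase, was at 16.9, 18.2, 18.1 and 18.1 TPM in CJ28 and at 27.9 to 29.3 TPM in MET, with a difference of -0.68 ± 0.036. Part of its reads can match a near-identical pseudogene. SULT2A1, which sulfates DHEA, differed by -1.41 ± 0.060. HSD3B2, the 3β-hydroxysteroid dehydrogenase, lay under the TPM limit for members, at 0.13 to 0.23 TPM in CJ28 and 0.62 to 0.95 TPM in MET, and so did MC2R, the ACTH receptor, with a difference of -1.28. Electron donors of these enzymes differed less. FDX1, its reductase FDXR and CYB5A were lower (-0.54 ± 0.047, -0.41 ± 0.047 and -0.35 ± 0.046). POR, which serves the microsomal P450 enzymes, was at 47.6 to 58.5 TPM in CJ28 and 52.1 to 56.6 TPM in MET with a difference of -0.044 ± 0.057 and an interval of -0.17 to 0.081. CYP19A1 (aromatase, -0.073 ± 0.18) and PAPSS2 (the sulfate donor synthase, 0.010 ± 0.069) were not called either. On the nuclear protein-coding scale POR (0.15) and PAPSS2 (0.20) were called higher. AKR1C3, which reduces 17-ketosteroids, was the only higher member of this list, at 26.2 ± 0.797 TPM in CJ28 and 16.1 ± 0.7 TPM in MET (0.70 ± 0.055), and its reads can be shared with other AKR1C genes.

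Transcription factors and other regulators of the adrenal cortex did not move in a single direction. Of 15 members 6 were higher and 6 lower, with a median of -0.04 as deposited, 0.08 after median-of-ratios scaling and 0.15 on the nuclear protein-coding scale. NR5A1 (SF-1), the main activator of steroidogenic genes, was lower (-0.77 ± 0.050, limma adjusted p = 5.81e-08), with 26.8 ± 1.76 TPM in CJ28 and 45.7 ± 1.98 TPM in MET, and GATA6 was lower (-0.91 ± 0.15). NR0B1 had TPM of 5.96, 5.94, 5.96 and 5.37 in CJ28 and of 2.21, 2.14, 3.09 and 2.42 in MET, with 2.58 to 3.22 in VEH. NR0B1 (DAX-1) represses NR5A1, and it was higher in CJ28 by 1.22 ± 0.11 (limma adjusted p = 9.21e-07). NR2F2 (COUP-TFII) was at 9.3 ± 0.564 TPM in MET and 4.17 ± 0.459 TPM in CJ28. The nuclear receptor NR4A1, an early response gene of steroidogenic cells, was higher (0.92 ± 0.078), while its relative NR4A3 was lower (-0.89 ± 0.069). CTNNB1, the effector of Wnt signalling, was lower (-0.33 ± 0.024), and DLK1 was higher by 0.21 ± 0.076 (limma adjusted p = 0.0345), a call that was lost without CJ28-2, CJ28-4, MET-1, MET-2 or MET-3, with values of 0.13 to 0.21.

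Genes of cholesterol synthesis were lower almost throughout. Of 21 members 19 were lower, 1 was higher and 1 was not called, with a median of -1.43 (18 lower, 1 higher and a median of -1.31 after median-of-ratios scaling), and the summed level was 415 ± 6.78 TPM in CJ28 against 1042 ± 12.4 TPM in MET. HMGCS1 stood at 52.1, 51.4, 52.3 and 48.7 TPM in the 4 CJ28 samples, at 181, 173, 181 and 179 TPM in the 4 MET samples and at 181 to 204 TPM in VEH. This enzyme makes HMG-CoA, and its difference was -1.8 ± 0.039 (limma adjusted p = 3.23e-12). Mevalonate kinase, MVK, fell from 22 ± 1.16 TPM to 6.07 ± 0.488 TPM, the largest difference of the list (-1.84 ± 0.063). FDPS, which makes farnesyl diphosphate, differed by -1.22 ± 0.035, and DHCR7, a reductase of the last steps before cholesterol, by -1.54 ± 0.073. TM7SF2 (0.032 ± 0.10) was not called, and GGPS1, which makes geranylgeranyl diphosphate for a branch that leaves the sterol route, was higher (0.43 ± 0.081).

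The lowest member of all against MET was SREBF1, the gene of SREBP-1, which activates lipid synthesis genes. SREBF1 was measured at 1.03, 1.2, 0.76 and 0.83 TPM in CJ28, at 17.5, 15.5, 18.1 and 20.1 TPM in MET and between 18.3 and 21.9 TPM in VEH. The difference was -4.10 ± 0.12 (limma adjusted p = 4.21e-11), and the highest CJ28 value was far below the lowest MET value. SREBF2, which encodes the factor for cholesterol genes, differed by -0.85 ± 0.12. Of 19 members in the list of SREBP regulators and cholesterol handling, 12 were lower and 3 higher, with a median of -0.33 (11 lower, 3 higher and -0.21 after median-of-ratios scaling, and -0.15 on the nuclear protein-coding scale). INSIG1, which holds SREBP in the endoplasmic reticulum when sterols are plentiful, was lower (-2.19 ± 0.031). ABCA1, the cholesterol exporter that LXR activates, stood at 0.1 to 0.13 TPM in CJ28 and at 1.05 to 1.33 TPM in MET (-2.52 ± 0.14). SCARB1, the receptor that takes up cholesterol esters from HDL in steroidogenic cells, and NPC1, which moves cholesterol out of lysosomes, were higher by 0.29 ± 0.087 and 0.63 ± 0.063, and the CJ28 and MET values of SCARB1 overlapped.

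Fatty acid synthesis and desaturation genes were lower as well. Of 23 members 15 were lower, 1 was higher and 7 were not called, with a median of -0.54 (13 lower, 3 higher and -0.42 after median-of-ratios scaling, and -0.35 on the nuclear protein-coding scale). SCD had TPM of 13.8, 13.9, 13.5 and 13.6 in CJ28 and of 85.8, 88.6, 83.7 and 84.4 in MET, with 86.4 to 94.8 in VEH. SCD introduces the double bond of oleate, and its difference was -2.63 ± 0.035 (limma adjusted p = 9.65e-14). FADS2, which desaturates polyunsaturated fatty acids, fell from 64.1 ± 2.85 TPM to 8.21 ± 0.505 TPM (-2.95 ± 0.046), and ELOVL3, an elongase of long chains, from 3.54 ± 0.0834 TPM to 0.237 ± 0.0714 TPM (-3.46 ± 0.14). FASN, ACLY and ACACA, the core of the pathway, differed by -1.09 ± 0.16, -0.96 ± 0.039 and -0.86 ± 0.074.

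**Figure D4:**
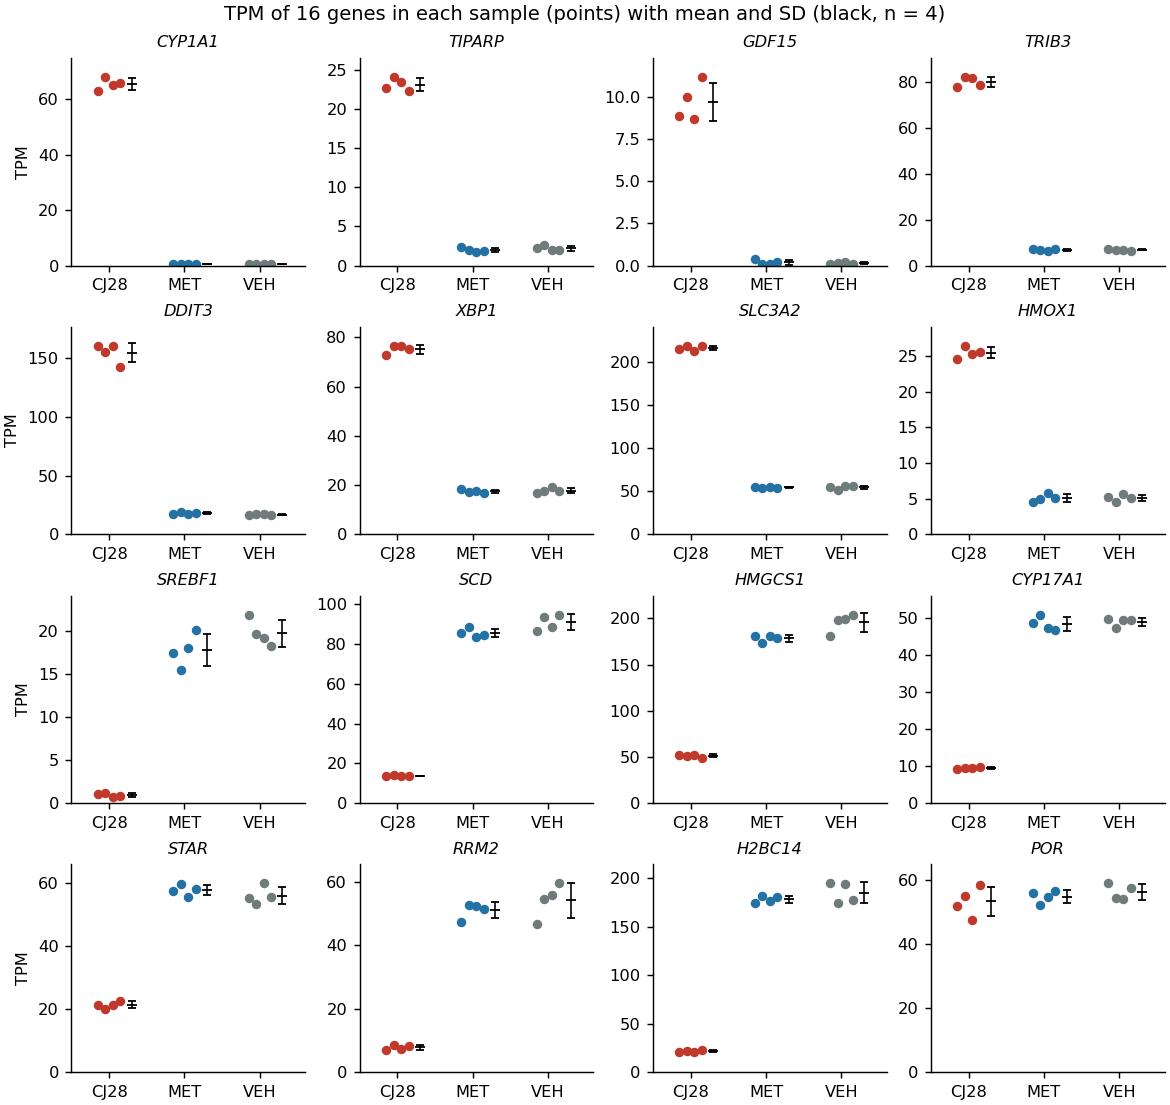
TPM of 16 genes in each of the 4 CJ28, 4 MET and 4 VEH samples, on linear axes that start at 0, with the mean and SD beside the points. In 15 of the panels every CJ28 value lies apart from every MET value, and in the panel of POR the 3 groups overlap. Several of these genes were chosen by a rule that asked for non-overlap, so this count says nothing about the members at large. Of all genes tested, 50.2% had no overlap of CJ28 and MET.

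The largest increase of all was in a gene of the aryl hydrocarbon receptor (AHR), a ligand-activated factor that pairs with ARNT and binds the letters GCGTG. CYP1A1 stood at 62.9, 67.9, 65.2 and 65.9 TPM in the 4 CJ28 samples, at 0.55, 0.69, 0.56 and 0.52 TPM in the 4 MET samples and at 0.39 to 0.71 TPM in VEH. CYP1A1 is a P450 enzyme of xenobiotic metabolism and the classical AHR target, and its difference was 6.60 ± 0.13. It was under 1 TPM in every MET sample and is a member only through CJ28, as is GDF15 below, so a difference in this direction follows from the rule. No CJ28 value came near the MET and VEH values. TIPARP was measured at 22.7, 24.1, 23.4 and 22.3 TPM in CJ28, at 2.39, 2.04, 1.73 and 1.86 TPM in MET and between 1.94 and 2.63 TPM in VEH. TIPARP is an ADP-ribosyltransferase that represses AHR in a feedback loop, and it differed by 3.47 ± 0.10. AHRR, the AHR repressor, is listed under 2 overlapping identifiers between which reads can be split, and it was at 9.58 to 11.3 TPM in CJ28 and 1.38 to 1.51 TPM in MET under the higher one (2.8 ± 0.14). Of the 10 entries of this list 8 were higher and 0 lower, with a median of 0.80 (10 higher, 0 lower and 0.92 after median-of-ratios scaling). AHR itself was higher by 1.13 ± 0.077, NQO1, a quinone reductase, by 0.46 ± 0.045, and ARNT (0.14 ± 0.061) was called only on both other scales or without MET-3 (0.18).

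Stretches before the RefSeq starts of 3 of these genes (GRCh38.p14) are shown because they hold the core letters, which are in capitals as GCGTG or its reverse complement CACGC, 5′ to 3′ on the gene's strand.
CYP1A1, chr15:74725529-74725648 (- strand): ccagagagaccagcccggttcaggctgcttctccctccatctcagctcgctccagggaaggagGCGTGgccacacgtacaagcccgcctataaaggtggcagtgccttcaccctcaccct
TIPARP, chr3:156674342-156674461 (+ strand): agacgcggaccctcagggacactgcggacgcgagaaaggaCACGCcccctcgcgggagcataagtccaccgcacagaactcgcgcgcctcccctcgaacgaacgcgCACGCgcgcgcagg
AHRR, chr5:321594-321713 (+ strand): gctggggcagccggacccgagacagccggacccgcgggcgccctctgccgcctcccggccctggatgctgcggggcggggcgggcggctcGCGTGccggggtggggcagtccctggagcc
The core letters, searched on both strands, were in 36.5% of all 35116 promoter windows of RefSeq, each from 250 bases before to 50 after a start, in 49.0% of the members' windows and in 75% of 12 windows of the AHR list. The share was as high in other lists, such as cholesterol synthesis (82.6% of 23 windows), and a match is given as a description.

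Genes of the integrated stress response, in which phosphorylation of eIF2α favours translation of ATF4, were higher in CJ28. Of 22 members 17 were higher, 3 lower and 2 not called, with a median of 1.65 (19 higher, 2 lower and 1.77 after median-of-ratios scaling), and the summed level was 643 ± 8.20 TPM in CJ28 and 248 ± 5.48 TPM in MET, 2.59-fold higher. DDIT3 had TPM of 160.1, 155, 161 and 143 in CJ28 and of 17.6, 18.9, 17.5 and 18.1 in MET, with 16.4 to 17.1 in VEH. DDIT3 encodes CHOP, a factor linked to cell death under stress, and its difference was 3.09 ± 0.042 (limma adjusted p = 9.65e-14). TRIB3 stood at 77.6, 82, 81.3 and 78.6 TPM in the 4 CJ28 samples, at 7.1, 6.66, 6.18 and 7.36 TPM in the 4 MET samples and at 6.52 to 7.04 TPM in VEH. TRIB3, a pseudokinase induced by ATF4 and CHOP, differed by 3.53 ± 0.052 (limma adjusted p = 1.66e-13). GDF15 was measured at 8.88, 10.01, 8.71 and 11.2 TPM in CJ28, at 0.41, 0.1, 0.1 and 0.22 TPM in MET and between 0.09 and 0.2 TPM in VEH. GDF15, a secreted stress cytokine, differed by 5.10 ± 0.28, from a level in MET at which the added constant of 0.1 matters. In all 3 genes the CJ28 values lay above all others, which for GDF15 against MET follows from the rule of membership. NIBAN1, counted among the higher members, is also a member only through CJ28. It was at 2.81 to 3.2 TPM in CJ28 and 0.19 to 0.31 TPM in MET.

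ATF4 mRNA itself differed little, from 71.4 ± 1.67 TPM in MET to 84.1 ± 2.39 TPM in CJ28 (0.24 ± 0.034). PPP1R15A, the phosphatase subunit that ends the response, was higher by 2.31 ± 0.049, CEBPB by 2.24 ± 0.094, SESN2 by 1.95 ± 0.068 and CHAC1, which degrades glutathione, by 1.84 ± 0.075. Of the 4 eIF2α kinases EIF2AK3 (PERK) was higher by 0.53 ± 0.11, EIF2AK2 (PKR) was lower (-0.25 ± 0.077) and the other two were not called. The call of EIF2AK2 was lost on both other scales and, at -0.20, without MET-2. VLDLR (-1.16 ± 0.11) and ATF5 (-0.67 ± 0.069) were the other lower members.

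Genes that supply amino acids moved in the same direction. Of 16 members for serine, one-carbon and asparagine synthesis 12 were higher and 3 lower, with a median of 1.01 (12 higher, 1 lower and 1.13 after median-of-ratios scaling). ASNS had TPM of 74.9, 73.7, 74.2 and 75.4 in CJ28 and of 20.4, 18.7, 21.2 and 18.5 in MET, with 17.2 to 19.98 in VEH. Asparagine synthetase differed by 1.92 ± 0.055 (limma adjusted p = 3.34e-11), PCK2, a mitochondrial gluconeogenic enzyme, by 1.96 ± 0.069, and SHMT2, the mitochondrial serine hydroxymethyltransferase, by 1.8 ± 0.042 from 58.6 ± 2.13 TPM in MET to 204 ± 7.13 TPM in CJ28. PSPH, the last enzyme of serine synthesis, was lower (-0.42 ± 0.058). Of 14 amino acid transporters 9 were higher and 1 lower, with a median of 0.48 (11 higher, 1 lower and 0.60 after median-of-ratios scaling). SLC3A2 stood at 215, 219, 213 and 219 TPM in the 4 CJ28 samples, at 55.6, 54.1, 55.2 and 54.2 TPM in the 4 MET samples and at 51.8 to 56.3 TPM in VEH. This gene encodes the common chain of several exchangers (1.98 ± 0.030), and its cystine partner SLC7A11 rose by 1.65 ± 0.057, whereas SLC36A1, a lysosomal carrier, was lower (-0.55 ± 0.12).

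Cytosolic tRNA synthetases, which charge tRNAs with amino acids, were split. Of 20 members 13 were higher, 2 lower and 5 not called, with a median of 0.54 (15 higher, 1 lower and 0.66 after median-of-ratios scaling). WARS1 was measured at 89.5, 95, 86.4 and 94.3 TPM in CJ28, at 26.7, 28.5, 29.5 and 27.7 TPM in MET and between 28.1 and 31.6 TPM in VEH. The tryptophan enzyme differed by 1.70 ± 0.046, AARS1 by 1.52 ± 0.073 and IARS1 by 1.3 ± 0.041. EPRS1, the fused glutamate and proline enzyme, went the other way, from 312 ± 8.26 TPM in MET to 143 ± 4.92 TPM in CJ28 (-1.13 ± 0.031, limma adjusted p = 2.18e-11).

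Stretches of 30 bases are shown for 4 genes of these lists, since annotated exons of some of their transcripts reach into the window. The capitals mark TGATGNAA, the composite element of ATF4 and C/EBP factors, or its reverse complement, and both strands were searched for this and the other motifs.
CHAC1, chr15:40953251-40953280 (+ strand): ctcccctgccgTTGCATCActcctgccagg
ASNS, chr7:97872458-97872487 (- strand): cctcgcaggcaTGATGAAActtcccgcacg
AARS1, chr16:70289675-70289704 (- strand): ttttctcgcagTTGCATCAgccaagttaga
IARS1, chr9:92293698-92293727 (- strand): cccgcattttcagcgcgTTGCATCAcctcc
These letters were in 3.62% of all promoter windows. Of the members that passed the stricter limit upwards, 53 genes had windows, and 10 of these genes held the letters (13.1% of 84 windows). The share was 11.1% of 27 windows for the stress response list, 29.4% of 17 for serine and one-carbon genes, 20.8% of 24 for the transporters and 33.3% of 21 for the synthetases. Among the synthetases 7 genes held the letters, all 7 were higher, and their median was 1.14. Of 9 with a window without them 3 were higher and 2 lower, with a median of 0.04. Among these 9 were EPRS1, which was lower, and WARS1, which had the largest value of the list (1.70). Not every list split this way. Of the stress response genes, 3 held the letters and were higher (median 1.68), while among 15 without them 11 were higher and 3 lower (median 0.99), with the largest value of the list, 5.10. For serine and one-carbon genes the medians were 0.83 with the letters (3 genes) and 0.75 without them (8 genes). The 5 transporters with the letters were all higher (median 0.81), and of 8 without them 3 were higher and 1 lower (median 0.19).

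Chaperones of the endoplasmic reticulum were higher and those of the cytosol lower. Of 21 endoplasmic reticulum members 18 were higher and 0 lower, with a median of 0.48 (18 higher, 0 lower and 0.60 after median-of-ratios scaling). XBP1 had TPM of 72.7, 76.6, 76.4 and 75.3 in CJ28 and of 18.2, 17.3, 17.5 and 16.7 in MET, with 16.9 to 19.1 in VEH. XBP1, a factor of the unfolded protein response, differed by 2.11 ± 0.043 (limma adjusted p = 2.09e-12). HSPA5 stood at 77.7, 74.6, 56.7 and 95.4 TPM in the 4 CJ28 samples, at 28.4, 29.6, 30.4 and 32.1 TPM in the 4 MET samples and at 26.9 to 45.6 TPM in VEH. This is BiP, the main chaperone of the compartment, with a difference of 1.31 ± 0.16 and a wide spread between the CJ28 samples. CANX and HSP90B1, a lectin and an HSP90 of this compartment, rose by 0.37 ± 0.033 and 0.57 ± 0.031.

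Promoter stretches of HSPA5 and XBP1 are shown with the ER stress element in capitals, the letters CCAAT, any 9 bases and CCACG. The element contains CCAAT, the NF-Y box.
HSPA5, chr9:125241385-125241414 (- strand): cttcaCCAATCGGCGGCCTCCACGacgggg
XBP1, chr22:28800570-28800689 (- strand): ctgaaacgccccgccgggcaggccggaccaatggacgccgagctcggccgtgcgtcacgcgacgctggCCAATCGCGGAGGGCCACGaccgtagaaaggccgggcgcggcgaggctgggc
The element was in 0.0769% of all promoter windows and in 34.6% of 26 windows of the endoplasmic reticulum list. The 7 genes with the element differed less (median 0.37, 6 higher) than the 13 without it (median 0.59, 11 higher).

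Among 14 cytosolic heat shock members 11 were lower and 2 higher, with a median of -0.69 (11 lower, 3 higher and -0.57 after median-of-ratios scaling). HSPA8 was measured at 166, 165, 174 and 154 TPM in CJ28, at 379, 389, 380.5 and 374 TPM in MET and between 371 and 391 TPM in VEH. HSPA8, the constitutive HSP70, differed by -1.21 ± 0.035 (limma adjusted p = 3.61e-11), HSP90AB1 by -0.56 ± 0.030 and HSPA1B, whose reads can be shared with HSPA1A, by -1.01 ± 0.047. The factors HSF1 (0.52 ± 0.11) and HSF2 (0.42 ± 0.071) were the higher members. Of 15 mitochondrial chaperones and proteases 8 were higher and 6 lower, with a median of 0.21 (8 higher, 4 lower and 0.33 after median-of-ratios scaling, and 0.40 on the nuclear protein-coding scale). The pair HSPD1 and HSPE1, which form the mitochondrial chaperonin, was lower (-0.72 ± 0.037 and -1.26 ± 0.033), while LONP1, a protease of the matrix, was higher by 0.89 ± 0.044 and HSPA9 by 0.54 ± 0.032.

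Of 17 antioxidant genes that NRF2 activates 11 were higher and 4 lower, with a median of 0.46 (12 higher, 3 lower and 0.58 after median-of-ratios scaling). HMOX1 had TPM of 24.6, 26.4, 25.3 and 25.5 in CJ28 and of 4.49, 4.93, 5.83 and 5.06 in MET, with 4.58 to 5.59 in VEH. Heme oxygenase differed by 2.31 ± 0.077 (limma adjusted p = 1.13e-10). The ferritin genes FTL (0.88 ± 0.033) and FTH1 (0.76 ± 0.12) were higher, TXNRD1 rose by 0.70 ± 0.034 and GCLM by 0.55 ± 0.077. PRDX1, a peroxiredoxin, was lower (-1.07 ± 0.047), and of the pentose phosphate enzymes PGD was lower (-0.81 ± 0.15).

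Genes of the cell cycle were lower in CJ28 from DNA replication to mitosis. Of 40 replication members 36 were lower, 1 was higher and 3 were not called, with a median of -0.74 (35 lower, 1 higher and -0.62 after median-of-ratios scaling). RRM2 stood at 6.98, 8.5, 7.14 and 8.32 TPM in the 4 CJ28 samples, at 47.3, 52.8, 52.5 and 51.5 TPM in the 4 MET samples and at 46.6 to 59.5 TPM in VEH. RRM2 makes deoxynucleotides, and its difference was -2.71 ± 0.082 (limma adjusted p = 4.61e-11). PCNA, the sliding clamp, fell from 112 ± 1.65 TPM in MET to 41.5 ± 2.12 TPM in CJ28 (-1.43 ± 0.038). RFC1, a clamp loader subunit, was the higher member (0.17 ± 0.064), a call that was lost without CJ28-1, CJ28-3, MET-1, MET-2 or MET-3 (0.14 to 0.18). All 34 mitosis members were lower, with a median of -0.93 and values from -1.86 to -0.59, and all were also lower after median-of-ratios scaling (median -0.81). MKI67 was measured at 14.9, 14.4, 12.3 and 16.1 TPM in CJ28, at 40.1, 40.3, 38.8 and 41.5 TPM in MET and between 38.8 and 48.7 TPM in VEH. MKI67 marks cycling cells, and its difference was -1.48 ± 0.084. PRC1, which bundles spindle microtubules and is not in the polycomb complex of that name, was lower (-0.68 ± 0.042).

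Upstream of the G1 to S transition, CCNE2, a cyclin that activates CDK2, fell from 11.7 ± 0.616 TPM to 2.22 ± 0.118 TPM (-2.34 ± 0.057), and CCND2 and CDK2 were lower (-1.33 ± 0.052 and -0.62 ± 0.035). Of 21 members in this list 15 were lower and 3 higher, with a median of -0.34 (12 lower, 4 higher and -0.23 after median-of-ratios scaling, and -0.17 on the nuclear protein-coding scale). The p53 targets CDKN1A (-0.24 ± 0.030) and SESN1 (-0.50 ± 0.099) were lower, of which the first was not called on the nuclear protein-coding scale, and BBC3 (PUMA), which promotes apoptosis, was higher by 1.86 ± 0.094. CDK4 lay at the threshold (-0.085 ± 0.030, limma adjusted p = 0.0275), was positive but not called after median-of-ratios scaling (0.036) and was called higher on the nuclear protein-coding scale (0.11). As deposited, its call was also lost without CJ28-3, MET-1, MET-2 or MET-3 (-0.086 to -0.069).

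Replication-dependent histone genes, which are transcribed in S phase, were lower in 57 of 60 members and higher in 0, with a median of -1.30 (57 lower and -1.18 after median-of-ratios scaling). Their summed level was 6545 ± 40.6 TPM in CJ28 and 14512 ± 322 TPM in MET, 2.22-fold higher in MET. H2BC14 had TPM of 20.9, 22.1, 20.4 and 22.9 in CJ28 and of 174, 182, 176 and 180.4 in MET, with 175 to 195 in VEH. Its difference was -3.04 ± 0.045 (limma adjusted p = 1.66e-13). H3C4 stood at 4.32 to 10.1 TPM in CJ28 and 46.2 to 74.7 TPM in MET (-3.13 ± 0.24). Many histone genes are near-identical and their transcripts lack poly(A) tails, so single values are uncertain and poly(A) selection would miss them.

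Promoter stretches of MKI67 and PRC1 are shown with the letters TTTGAA of the cell cycle homology region in capitals.
MKI67, chr10:128126424-128126543 (- strand): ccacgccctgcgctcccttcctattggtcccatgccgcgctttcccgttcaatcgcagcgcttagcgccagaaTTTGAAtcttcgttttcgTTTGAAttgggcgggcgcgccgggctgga
PRC1, chr15:90994538-90994567 (- strand): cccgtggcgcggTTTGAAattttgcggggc
These letters, on either strand, were in 15.2% of all promoter windows and in 66.7% of 36 windows of the mitosis list. The 21 mitosis genes with the letters and the 8 without them were all lower, with medians of -0.95 and -0.99. NF-Y letters, CCAAT, were in 34.6% of all windows, 75% of the mitosis windows and 88.1% of 59 histone windows. TCACNCCAC, an SREBP element, was in 1.13% of all windows and in 0 windows of the cholesterol synthesis list. No match says only that these letters are not in this window. Of the members, 9140 had a window in the table and 2153 had none.

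**Figure D5:**
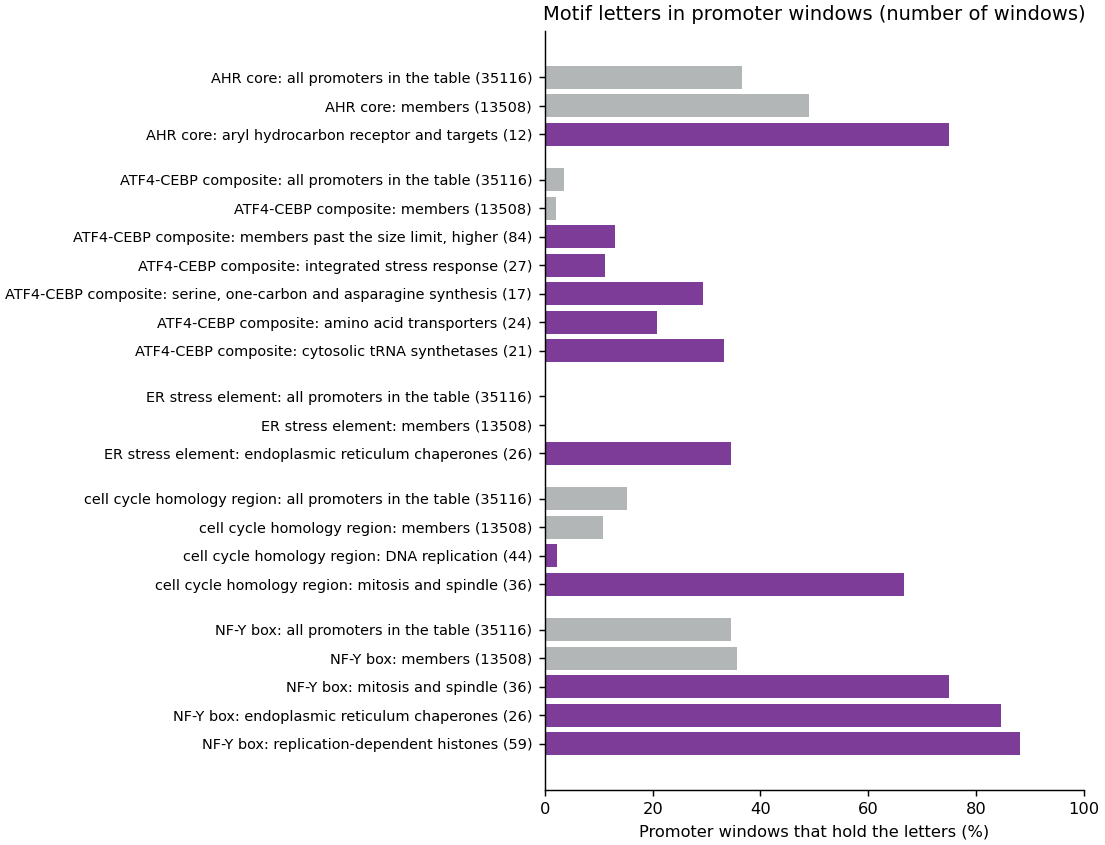
Bars give the share of promoter windows that hold the letters of 5 motifs, on either strand, with the number of windows in parentheses. Grey bars are all windows and the members' windows, and purple bars the lists; the highest shares are 88.1% (CCAAT, histones) and 84.6% (CCAAT, endoplasmic reticulum chaperones).

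Energy metabolism genes were lower in part. Of 20 glycolysis members 15 were lower and 4 higher, with a median of -0.39 (13 lower, 5 higher and -0.27 after median-of-ratios scaling, and -0.20 on the nuclear protein-coding scale). PKM stood at 305, 307, 307 and 309 TPM in the 4 CJ28 samples, at 568, 589, 552 and 580.1 TPM in the 4 MET samples and at 564 to 605 TPM in VEH. Pyruvate kinase differed by -0.90 ± 0.029 (limma adjusted p = 8.74e-11), and LDHA by -1.04 ± 0.052. SLC2A3, a glucose carrier, and ENO2, the neuronal enolase, were higher by 0.97 ± 0.058 and 1.26 ± 0.095. Of 79 nuclear respiratory chain members 59 were lower and 10 higher, with a median of -0.34 (46 lower, 13 higher and -0.21 after median-of-ratios scaling, and -0.14 on the nuclear protein-coding scale). NDUFB3 and COX7B, small subunits of complexes I and IV, were lower (-0.95 ± 0.066 and -0.84 ± 0.049), and ATP5F1B, a catalytic subunit of ATP synthase, differed by -0.085 ± 0.029, which was positive but not called after median-of-ratios scaling (0.037) and was called higher on the nuclear protein-coding scale (0.11). As deposited, that call was also lost without CJ28-3, CJ28-4, MET-1 or MET-2 (-0.081 to -0.073). Of 13 mitochondrially encoded members 10 were lower and 0 higher as deposited, with a median of -0.30, and 7 were lower after median-of-ratios scaling (median -0.18). The lowest was MT-ATP8, a small subunit of ATP synthase (-0.55 ± 0.12).

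Fatty acid oxidation genes were called about as often in each direction as all members (25.8% higher and 39.8% lower), with 5 higher and 8 lower of 21 members and a median of -0.10 (6 higher, 6 lower and 0.02 after median-of-ratios scaling, and 0.09 on the nuclear protein-coding scale). PPARGC1A, a coactivator of mitochondrial genes, was higher by 1.29 ± 0.14, PDK4, which restrains pyruvate entry, by 0.50 ± 0.042, and ECHS1, an enoyl-CoA hydratase, was lower (-0.74 ± 0.035). Of 37 proteasome members 30 were lower and 3 higher, with a median of -0.43 (25 lower, 4 higher and -0.31 after median-of-ratios scaling, and -0.24 on the nuclear protein-coding scale). The 3 higher ones were PSMD5 (0.26 ± 0.085) and the immunoproteasome subunits PSMB8 (0.63 ± 0.048) and PSMB9 (0.48 ± 0.18). The call of PSMD5 was lost without CJ28-1, CJ28-4 or MET-2 (0.22 to 0.24), and that of PSMB9 without CJ28-1, CJ28-3, CJ28-4, MET-2 or MET-3 (0.39 to 0.50). PSMD1 and PSMB4 were lower (-0.93 ± 0.059 and -0.41 ± 0.033).

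Ribosomal protein genes had no common direction, and the counts of the mitochondrial ones lay near the shares of all members. Of 84 cytosolic members 29 were higher and 26 lower, with a median of 0.02, whereas after median-of-ratios scaling 44 were higher and 11 lower (median 0.15, and 0.22 on the nuclear protein-coding scale), and their summed level was 29721 ± 598 TPM in CJ28 and 29612 ± 143 TPM in MET. RPL22L1 and RPL12 stood out upwards (1.22 ± 0.070 and 0.80 ± 0.027), and RPL35 was lower (-0.44 ± 0.029). Of 78 mitochondrial ribosomal members 18 were higher and 33 lower (median -0.07), against 29 higher and 17 lower after median-of-ratios scaling (median 0.05, and 0.12 on the nuclear protein-coding scale). MRPL27 and MRPS28 were lower (-1.03 ± 0.057 and -0.99 ± 0.092).

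Glucocorticoid receptor targets bear on the study because both compounds are described as lowering cortisol. Of 12 members 5 were higher and 4 lower, with a median of 0.05 (6 higher, 4 lower and 0.17 after median-of-ratios scaling, and 0.24 on the nuclear protein-coding scale). FKBP5, a sensitive target, was lower in CJ28 (-0.79 ± 0.13), as was SGK1 (-0.53 ± 0.054). TSC22D3 (GILZ) was higher, at 30.3 to 33.2 TPM in CJ28 and 16.4 to 17.4 TPM in MET (0.94 ± 0.042, limma adjusted p = 1.60e-09), and CEBPD rose by 1.19 ± 0.12. The metallothioneins MT2A and MT1X, which share reads with close relatives, were lower (-0.62 ± 0.041 and -0.44 ± 0.065). NR3C1, the receptor, was not called as deposited (0.062 ± 0.066, interval -0.082 to 0.21) and was called higher on both other scales.

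Among the members with the largest differences, several belonged to no list. DMGDH, a mitochondrial enzyme of choline breakdown, was at 4.26 to 5.13 TPM in CJ28 and 0.15 to 0.51 TPM in MET (3.66 ± 0.30). ARHGEF2, an exchange factor for RhoA, was at 25.5 to 28.7 TPM in CJ28 and 3.47 to 5.42 TPM in MET (2.54 ± 0.13). The integrin subunit ITGA11 and the MAP kinase phosphatase DUSP4 were higher by 2.67 ± 0.13 and 2.57 ± 0.13. In the other direction, LRRC17, a leucine-rich repeat protein, and ISM1, a secreted protein, stood at 1.1 to 1.59 and 1.24 to 1.59 TPM in CJ28 and at 9.22 to 10.5 and 9.35 to 9.81 TPM in MET (-2.8 ± 0.098 and -2.70 ± 0.068). RNASE1, a secreted ribonuclease, was lower (-2.77 ± 0.16). The groups did not overlap in any of these 7 genes, for which non-overlap was part of the choice. DMGDH, ITGA11 and DUSP4 are members only through CJ28, and RNASE1, like GATA6, ABCA1 and ELOVL3 above, only through MET.

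A few members were chosen by where MET lay against VEH, and none was called between MET and VEH after adjustment. The first rule asked for CJ28 and MET means on opposite sides of VEH, at a limma unadjusted p under 0.05 in both. It was met by 136 members (1.20%). At the same limit, 273 members had both means on the same side of VEH. Both differences share the VEH samples, so these 2 counts are not weighed against each other. The other rule asked that MET samples overlap neither CJ28 nor VEH samples, with CJ28 and VEH within 0.3 log2 of each other. It was met by 68 (0.602%). Neither rule was counted over all genes tested. Both pools were picked from these values, so no test is given. NUPR1, a stress-induced regulator, was at 7.49 to 10.3 TPM in CJ28, 0.84 to 1.17 TPM in MET and 1.32 to 1.62 TPM in VEH. CERS1, a ceramide synthase, was at 2.94 to 3.61 TPM in CJ28, 1.46 to 1.9 TPM in MET and 1.87 to 2.76 TPM in VEH, so that MET and VEH overlapped. SPATA24 was at 2.31 to 2.76 TPM in CJ28, 1.39 to 1.79 TPM in MET and 2.01 to 2.2 TPM in VEH. NKX2-5, a homeobox factor, was at 3.1 to 3.78 TPM in CJ28, 2.51 to 2.92 TPM in MET and 3.11 to 3.66 TPM in VEH.

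Membership rested on 1 TPM in 4 samples, and 10573 members passed it in all 8 samples, of which 65.4% were called, 2691 higher and 4224 lower. Another 89 members were under 1 TPM in all MET samples and 108 in all CJ28 samples, so that they entered through 1 group only. The 260 members with exactly 4 such samples had a median mean of 1.05 TPM, and the 117 genes just outside, with 3 such samples, 0.906 TPM.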

How the data were processed

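RNA of the 12 samples was sequenced in paired-end reads from stranded libraries of total RNA depleted of ribosomal RNA. The authors trimmed reads with Cutadapt 2.8, mapped them to GRCh38 with STAR 2.7.10b and computed TPM with RSEM 1.3.3, and the deposited table holds these TPM for 60662 genes, with 1 column per sample. TPM keeps no depth, so the depth of single values is unknown, and RSEM divides reads among near-identical genes.

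TPM were transformed as log2(TPM + 0.1) and fitted in limma 3.58.1 (R 4.3.3; lmFit, eBayes with trend) with all 12 samples, over 16815 genes at 0.5 TPM or more in at least 4 samples. P-values were two-sided and adjusted by Benjamini-Hochberg over all genes tested, and a gene was called at an adjusted p under 0.05. Differences are given with their standard error. A log2 difference on this scale understates the change of low genes. Summaries, promoter searches and figures were made in Python 3.11.15 (numpy 2.4.6, pandas 2.3.3, matplotlib 3.10.9). Tested on simulated data for CJ28 against MET over 16815 genes, the fit recovered 128 of 200 genes changed 1.5-fold with 7 false calls and 161 of 200 changed 2-fold with 8 false calls. Only 200 genes were changed there, whereas 55.5% of all genes tested were called in these data. The cutoff of p was therefore laxer in these data, and the counts of the simulation do not carry over to them.

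The members, gene lists and tests were chosen with earlier results of these data known. Genes were named by a rule: the 12 largest and 12 smallest differences without overlap. From each list it took the 2 largest and the 2 most abundant members, and every steroidogenic gene. It also took the 6 most abundant members within 0.3 log2, and up to 6 and up to 4 members by the 2 rules on MET and VEH. Another 44 genes, all but 1 of them list members, were named after their values were seen. Results for a few genes are not reported here. Alternatives were other pseudocounts, filters and scalings, a fit of 2 groups, a replicate block and leaving out each sample. The labels do not say that replicate numbers pair the samples, and the main fit used no pairing. Promoter windows and their sequences are from RefSeq, GRCh38.p14.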

Additional observations from a re-analysis of the deposited data

Results flagged for a closer look

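In 360 groups of 4 samples of the named genes, 17 samples lay far from the 3 others of their group by Dixon's test, where chance alone would give about 5% of groups. In CJ28-3 these were AHRR (9.58 TPM), CYP19A1 (3.22 TPM), TSC22D3 (30.32 TPM) and SPATA24 (2.76 TPM). In CJ28-4 they were NR0B1 (5.37 TPM), NQO1 (86.24 TPM), COX7B (42.78 TPM) and HSF2 (16.89 TPM). CYP11A1 stood apart in CJ28-2 (35.0 TPM) and CYP21A2 in CJ28-1 (16.89 TPM). In MET-2 INSIG1 (82.25 TPM) and VLDLR (4.24 TPM) stood apart, in MET-3 PAPSS2 (5.49 TPM) and EIF4E3 (2.1 TPM), and in MET-4 NKX2-5 (2.92 TPM). AC022506.1 stood apart in CJ28-2 (138.28 TPM) and in MET-1 (5.47 TPM).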

How the results depend on the processing

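Among the 180 named genes, a turn in sign was counted only where the gene was called as deposited or on the other scale. Genes with small differences that were called on neither were left out. After median-of-ratios scaling 2 genes turned, CDK4 (0.036) and ATP5F1B (0.037). On the nuclear protein-coding scale 4 turned, POR (0.15), CDK4 (0.11), RPL41 (2.5e-04) and ATP5F1B (0.11). On that scale 4770 members were higher and 2894 lower, and a pseudocount of 1 left 108 members past the stricter limit. The medians of 3 lists turned positive on both scales, those of adrenocortical regulators (0.08 and 0.15), fatty acid oxidation (0.02 and 0.09) and mitochondrial ribosomal proteins (0.05 and 0.12). The alternatives that kept all samples called 6771 to 7664 members, and none called a member between MET and VEH. Without each sample in turn, 6998 to 7210 members were called (2700 to 2792 higher, 4209 to 4423 lower), 205 to 219 passed the stricter limit, 2268 to 2424 lay within the margin and the nuclear protein-coding share differed by -3.11 to -2.93 points. With a replicate block 7436 members were called (2930 higher, 4506 lower), and of the named genes CDK4 and RFC1 lost their call and ACADVL gained one. With all genes above 0 TPM in the fit, 6 named genes lost their call: DLK1, CDK4, ATP5F1B, EEF1A1, RFC1 and PSMB9. The labels do not say whether replicate numbers pair the samples. The deviations of same-numbered CJ28 and MET samples correlated at -0.108 to 0.140, and 1 of 4 CJ28 samples correlated best with its own number. So few correlations cannot exclude a weak pairing. Low genes are limited by the 2 decimals of TPM and the added 0.1.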

Other observations

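Immediate early genes, which respond within minutes to growth factors and stress, were mostly higher in CJ28 than in MET. Of 12 members 8 were higher and 1 lower, with a median log2 difference of 0.38 (0.50 after median-of-ratios scaling and 0.58 on the nuclear protein-coding scale), and their summed level was 126 to 154 TPM in CJ28 and 84.7 to 95.9 TPM in MET. Of 10 genes for drug metabolism and efflux 1 was higher and 6 lower, with a median of -0.26 (2 higher, 4 lower and -0.14 after median-of-ratios scaling, and -0.07 on the nuclear protein-coding scale). CYP1A1, a P450 gene as well, was counted with the AHR targets and not in this list.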
